A study of Arabidopsis thaliana with 4 samples.

Results

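The cytochrome P450 genes were 233 of the 25660 loci measured on the array, taken as every locus whose description in the array files holds the words "cytochrome P450" without "reductase". Of 12 loci of the core glucosinolate, flavonoid and brassinosteroid pathways that were set aside by locus, 11 carry these words, and they are not analysed here. The members fall into 41 named families, in which the number gives the family and the letter the subfamily, and 10 members have no such name. The tissues compared were meristem-enriched shoot tissue and young leaves, both dissected by hand from *Arabidopsis thaliana* plants grown for 9 weeks in short days (8 h light, 16 h dark). All plants carried *clv3-9*, a point mutation that disrupts the stem cell signal CLV3, so both tissues come from the mutant and no wild type enters the comparison. Such plants form enlarged meristems with additional stem cells, which makes the apex large enough to cut out but limits it as a model of a normal apex. Each tissue has 2 biological replicates, and each replicate was hybridised to 1 one-colour array.

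Cytochrome P450 enzymes are haem proteins, mostly anchored in the endoplasmic reticulum, that insert oxygen into small molecules with electrons handed on by a reductase. In plants they make and break down hormones, build the monomers of lignin, cutin and suberin, and shape pigments, volatiles and defence compounds. For many members of the large CYP71, CYP81, CYP96 and CYP705 families the substrate is not known.

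Every level below is a log2 signal of 1 probe, scaled so that the 75th percentile is the same on all 4 arrays, and every difference is meristem minus leaf on that scale with its standard error from limma. A gene differed when its adjusted p was at most 0.05 over the 23255 loci tested, and levels are compared between tissues for 1 probe, never between genes. In these bulk samples, fewer cells of a type and less RNA per cell cannot be told apart. Set against marker genes of the labelled tissues, all 6 meristem markers were higher in the meristem samples, among them *STM* by 6.73 and *WUS* by at least 33.0-fold, and all 5 mesophyll markers were lower, among them *RBCS1B* by 7.44. The log2 of the summed mesophyll marker signal was 16.52 and 16.08 in the meristem samples against 19.80 and 19.60 in the leaves. Of the 4 flower markers 3 were higher in the meristem samples (*AP1*, *LFY* and *PI*), with a log2 summed signal of 9.73 and 10.13 against 6.61 and 6.45.

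A smaller share of the P450 genes than of all loci gave a signal well above background. Of the 233 members, 124 (53.2%) gave a signal well above background on all 4 arrays and 74 (31.8%) on none, against 72.3% and 19.8% of all loci. A further 16 did so in both meristem replicates and no leaf replicate, 7 in both leaf replicates and no meristem replicate, and 12 in other patterns. The test took in 199 members, those with a signal above background on both arrays of either tissue, and left out 34.

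Of the 199 members tested, 118 differed between the tissues (59.3%), against a background of 48.6% of all loci tested. In the meristem samples 52 members were higher (26.1%, background 27.1%) and 66 were lower (33.2%, background 21.6%). The median difference was -0.17 over the members tested and 0.10 over all loci. With a fitted difference of at least 4-fold as a further condition, 25 members were higher (12.6%, background 6.55%) and 24 lower (12.1%, background 6.42%). The background for both directions together was 13%. These counts take in members dim in 1 or both tissues, for some of which the bound on the fold is under 4. Of the 124 members well above background on all 4 arrays, 13 were higher by this measure and 17 lower (10.5% and 13.7%). Among all loci so measured the shares were 4.80% and 6.24%. The values of the tissues did not overlap for 161 members (80.9%, background 79.3%). Of the 118 differing members, 4 were not well above background in either tissue (*CYP71B16*, *CYP724A1*, *CYP702A2* and AT5G08250), so that no fold is given for them. The split by direction moved with the scaling of the arrays. Of the differing members 44.1% were higher here, against 55.7% of all differing loci. With arrays scaled to the median the share was 34.9% (38 higher and 71 lower, all loci 37.2%). With no scaling it was 58.6% (68 and 48, all loci 73.3%). With scaling to the spike-in controls it was 69.6% (96 and 42, all loci 85.1%). In that order, these scalings moved the median difference of all loci from 0.10 to -0.20, 0.51 and 0.86. With a normexp background correction 6 members were higher and 17 lower, all of them among the 118. Of all loci 547 were then higher and 1305 lower, so that 29.5% of the differing loci were higher, against 26.1% of the differing members. None of the 20 differing members for which only a lower bound on the fold is given kept its call.

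**Figure D1:**
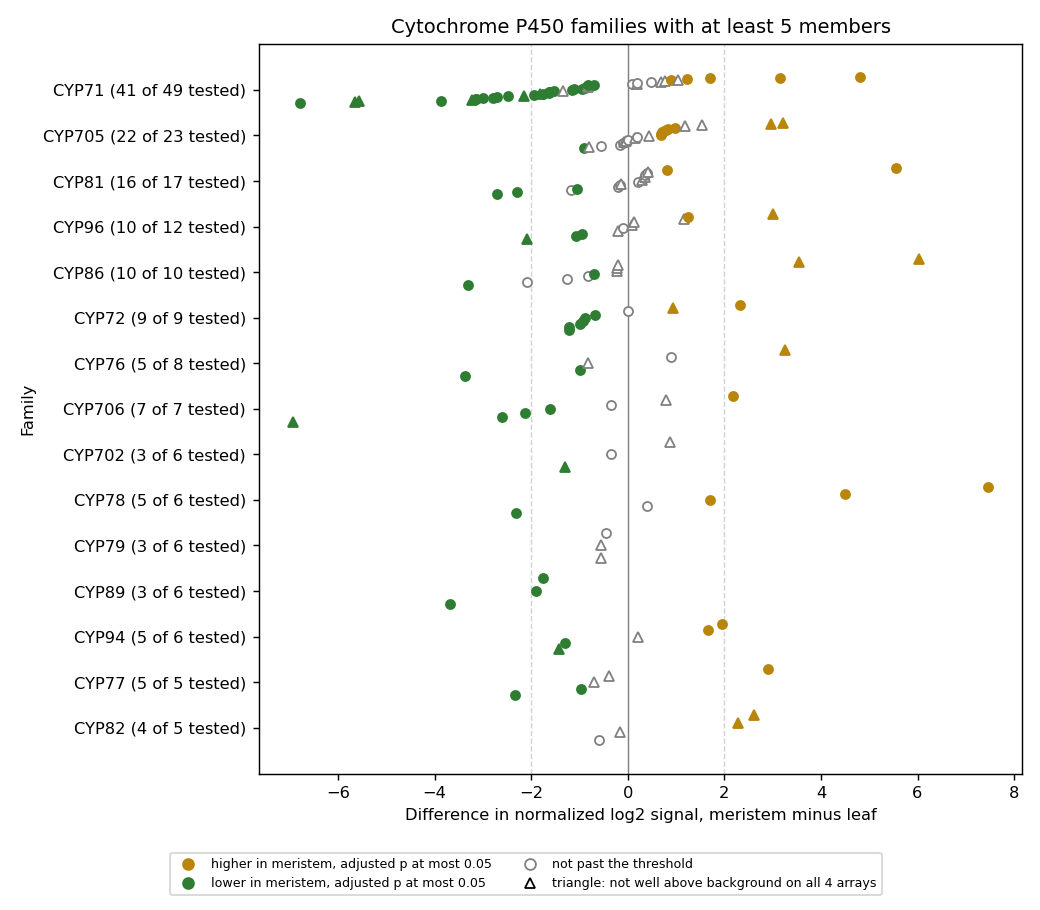
Differences between meristem and leaf (horizontal axis, log2) for the tested members of each P450 family with at least 5 members; filled points passed the adjusted p threshold, open points did not, and triangles mark members not well above background on all 4 arrays. CYP71 lies mostly to the left (26 of 41 tested lower), CYP78 reaches 7.45 and CYP706 reaches -6.93.

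On 14 lists of P450 roles there were 89 members, of which 79 were tested, with 29 higher in the meristem samples (36.7%, against 27.1% of all loci) and 16 lower (20.3%, against 21.6%). Among the 120 tested members on no such list, 23 were higher (19.2%) and 50 lower (41.7%). The lists were chosen with earlier results of these data known, which can shape this contrast, and the counts moved with the processing. Counts of the lists, families and runs below are to be set beside the 27.1% of all loci higher and 21.6% lower.

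The largest difference of any member belonged to the CYP78A group, whose enzymes promote organ growth and seed size. *CYP78A5* (AT1G13710), also called *KLUH*, which promotes organ growth through a signal that acts beyond the cells that make it, had levels of 11.97 and 12.13 in the meristem samples, far from 4.71 and 4.49 in the leaves. The tissues were widely separated, a difference of 7.45 ± 0.15 or 175-fold (adjusted p = 0.000464). *CYP78A7* (AT5G09970), which acts redundantly with it, stood at 9.86 and 10.46 in the meristem against 5.39 and 5.92 in the leaf samples. This was the next largest difference of the group at 4.50 ± 0.30 (22.7-fold, adjusted p = 0.00108), and the tissues were again fully separated. *CYP78A8* was higher by 1.70 ± 0.13 (adjusted p = 0.00156). The direction was opposite for *CYP78A6*, a promoter of seed growth, with 4.95 and 4.87 in the meristem against 7.14 and 7.30 in the leaf, a difference of -2.31 ± 0.13 (adjusted p = 0.000836). *CYP78A9*, which acts with *CYP78A6* in seeds, differed by 0.40 with a 95% interval of -0.14 to 0.93, and *CYP78A10* stayed near background, that is not well above it, on all 4 arrays. With normexp correction the call was lost for *CYP78A7* (adjusted p = 0.0554), *CYP78A8* (0.554) and *CYP78A6* (0.374).

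Both enzymes that turn isopentenyl cytokinins into trans-zeatin forms were measured in the meristem samples alone. *CYP735A2* (AT1G67110) had levels of 4.96 and 5.31 in the meristem, while its leaf values of 1.20 and 0.98 were not well above background. The meristem level was thus at least 4.17-fold higher (adjusted p = 0.000608). *CYP735A1* reached 3.17 and 3.76 in the meristem and was likewise not well above background in the leaf, at least 1.31-fold higher (adjusted p = 0.0171). These are dim signals: with normexp correction the fitted difference fell to 0.28 for *CYP735A2* and turned to -0.11 for *CYP735A1*, and without meristem replicate 2 the adjusted p of *CYP735A1* was 0.0531. *CYP711A1* (*MAX1*), which completes the strigolactone precursor, differed by 0.31 with an interval of -0.02 to 0.63 and did not pass the test.

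Of the 6 gibberellin genes 3 were higher in the meristem samples (50%, background 27.1%) and 1 lower (16.7%, background 21.6%). The latter call did not hold with every scaling. *CYP701A3*, the ent-kaurene oxidase, stood at 11.31 and 11.10 in the meristem against 11.06 and 11.19 in the leaf, with overlapping values. Of the ent-kaurenoic acid oxidases, *CYP88A3* (*KAO1*) was higher by 0.79 ± 0.20 (adjusted p = 0.0326) and *CYP88A4* (*KAO2*) differed by 0.13 with an interval of -0.20 to 0.46. The call of *CYP88A3* was lost without meristem replicate 2, leaf replicate 1 or leaf replicate 2 (adjusted p = 0.0564, 0.132 and 0.0864). The neighbouring genes *CYP714A1* and *CYP714A2* encode enzymes that deactivate gibberellins, and both were higher in the meristem. *CYP714A1* had 8.48 and 8.36 in the meristem against 6.78 and 6.54 in the leaf (3.38-fold, adjusted p = 0.00176), and *CYP714A2* had 6.23 and 6.10 against 4.48 and 3.82 (4.05-fold, adjusted p = 0.00520). Both calls were lost with normexp correction, with differences of 1.03 and 0.35 (adjusted p = 0.221 and 0.958). *CYP72A9*, which hydroxylates gibberellins, was lower by 0.99 (adjusted p = 0.00620), a call that was lost with no scaling (0.194) and with spike-in scaling (0.185). Of the enzymes outside this family, *GA1* and *GA2*, which supply ent-kaurene, neither passed the test.

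Of the 4 abscisic acid 8'-hydroxylases, which start the breakdown of that hormone, 2 were higher in the meristem samples (50%, background 27.1%) and none lower. *CYP707A1* (AT4G19230) stood at 9.73 and 10.34 in the meristem against 7.10 and 6.84 in the leaf, a difference of 3.07 ± 0.26 (8.37-fold, adjusted p = 0.00174). *CYP707A3* (AT5G45340) had 11.91 and 11.35 against 9.07 and 9.06, 5.90-fold higher (adjusted p = 0.00194), and its other probe gave 2.38. Both pairs of meristem values lay above both leaf values. *CYP707A4* differed by 0.73 ± 0.23 without passing the test (adjusted p = 0.0599), though it passed without meristem replicate 1 (0.95), and *CYP707A2* had overlapping values with a difference of -0.07 (interval -0.75 to 0.60). *CYP707A3* kept its call with normexp correction, whereas *CYP707A1* did not (adjusted p = 0.0751).

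Of the 5 jasmonate genes of the family 2 were higher and 2 lower. *CYP74A* (allene oxide synthase, at the entry of the pathway) was bright in both tissues, with 13.11 and 13.07 in the meristem against 13.63 and 13.71 in the leaf, and lower by 0.58 (adjusted p = 0.0188), a direction that turned with spike-in scaling (0.18). That call was also lost without leaf replicate 1 (adjusted p = 0.0961) and without leaf replicate 2 (0.125). Of the oxidases that inactivate jasmonoyl-isoleucine, *CYP94C1* had 9.87 and 9.97 in the meristem against 7.95 and 8.00 in the leaf (3.86-fold higher, adjusted p = 0.000980). *CYP94B3* had 9.07 and 9.01 against 7.28 and 7.48 (3.16-fold higher, adjusted p = 0.00167), so that replicates of 1 tissue lay close together and the tissues apart for both. *CYP94B1* ran the other way: it was not well above background in the meristem and at least 2.55-fold higher in the leaf (adjusted p = 0.00701). With normexp correction *CYP94C1* kept its call. The calls of *CYP94B3* and *CYP94B1* were lost, with differences of 1.11 and -0.34 (adjusted p = 0.0966 and 0.958). *CYP94B2* stayed near background on all 4 arrays. Among 7 other enzymes of the pathway, 2 were higher in the meristem (*AOC3* by 3.38, *OPR3* by 0.71) and 4 lower, *LOX2* by 4.75 and *AOC2* by 4.28 among them.

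Of the brassinosteroid genes outside those set aside, *CYP90D1*, a C-23 hydroxylase, was higher by 0.83 ± 0.15 (adjusted p = 0.0139). Its call was lost without leaf replicate 1 (adjusted p = 0.0780) or leaf replicate 2 (0.0551). *CYP72C1*, which lowers brassinosteroid levels, had overlapping values and an interval of -0.69 to 0.69. Of the 4 CYP710A sterol C-22 desaturases, which make stigmasterol-type sterols, *CYP710A1* stood at 5.70 and 5.43 in the meristem against 3.60 and 3.40 in the leaf (4.17-fold, adjusted p = 0.00153), a call lost with normexp correction (difference 0.23, adjusted p = 0.958). Its neighbour *CYP710A2* was higher by 0.45 ± 0.12 (adjusted p = 0.0421), which did not hold without any single array (adjusted p = 0.0887, 0.0892, 0.239 and 0.135). *CYP710A3* and *CYP710A4* stayed near background on all 4 arrays.

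**Figure D2:**
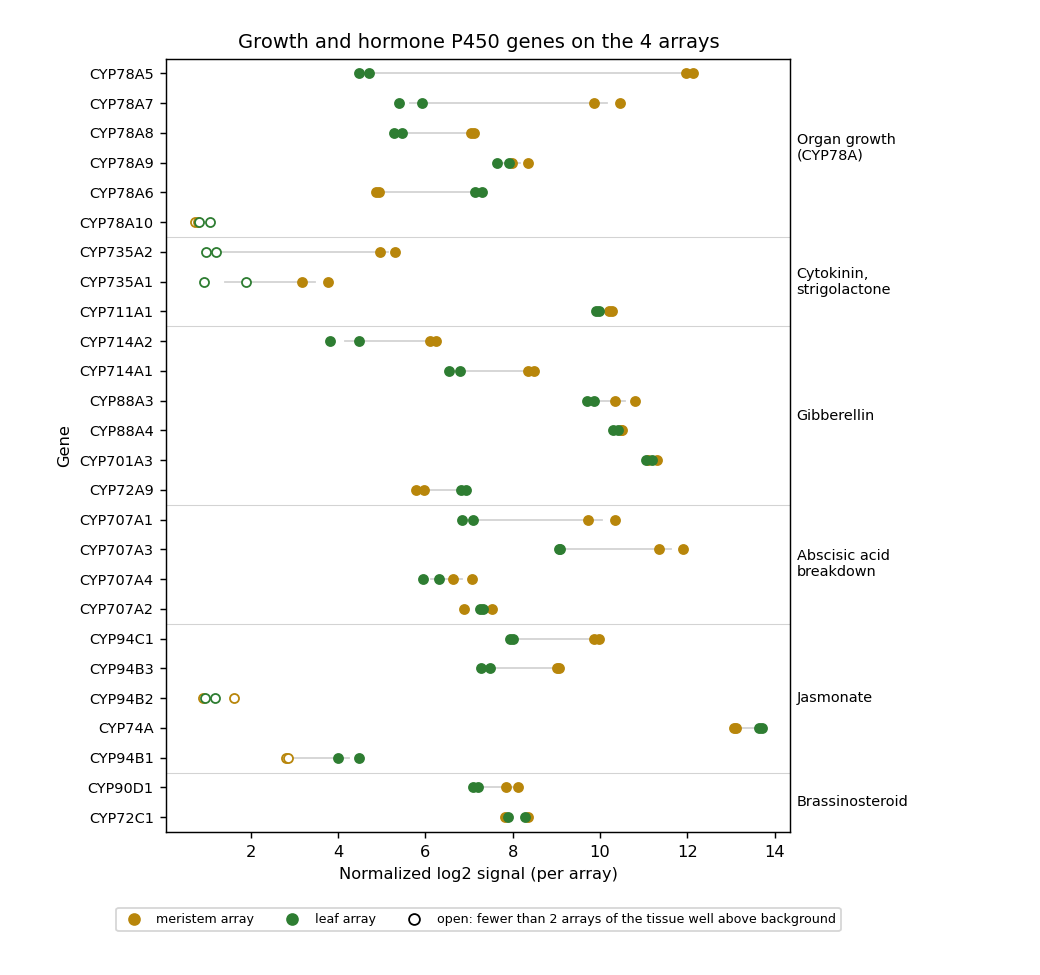
Normalized log2 signal (horizontal axis) of the growth and hormone P450 genes, 1 row a gene, with 1 point for each meristem and each leaf array and a line between the tissue means; open points mark a tissue in which fewer than 2 arrays were well above background. Positions are to be compared within a row: *CYP78A5* lies near 12 in the meristem and below 5 in the leaf, whereas *CYP701A3* overlaps.

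All 3 carotenoid hydroxylases of the family were lower in the meristem samples. *CYP97C1* (*LUT1*, AT3G53130), which acts on the epsilon ring of lutein, had 9.68 and 9.47 in the meristem against 11.56 and 11.43 in the leaf (difference -1.92 ± 0.14, adjusted p = 0.00136). *CYP97A3* (*LUT5*, AT1G31800), which acts on the beta ring, differed by -1.75 ± 0.15 (adjusted p = 0.00189) and *CYP97B3* by -1.90 ± 0.13 (adjusted p = 0.00125). Replicates of a tissue lay close together for the 3 genes, and the calls held in all 15 alternatives. The 6 other carotenoid genes measured were lower as well, from -1.10 for *LYC* to -2.71 for *BETA-OHASE2*. *CYP89A9*, which oxidises chlorophyll breakdown products, was lower by 1.91 (adjusted p = 0.00492). All 5 mesophyll markers were lower in the same samples (log2 summed signal of 16.52 and 16.08 against 19.80 and 19.60), and their part in these and the other leaf-high members was not tested.

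In the phenylpropanoid pathway, the first P450 step was higher in the meristem and the step towards sinapate lower. *CYP73A5* (cinnamate 4-hydroxylase, AT2G30490) had 14.19 and 14.74 in the meristem against 12.72 and 12.82 in the leaf, 3.25-fold higher (adjusted p = 0.00545). *CYP84A1* (ferulate 5-hydroxylase, AT4G36220) had 9.53 and 9.51 against 11.20 and 11.27, a difference of -1.71 ± 0.12 (adjusted p = 0.00119). Neither gene overlapped between tissues, but *CYP73A5* lost its call with normexp correction (adjusted p = 0.0778). *CYP98A3* (coumaroyl ester 3'-hydroxylase), which stands between them, had overlapping values with a difference of -0.19 (interval -0.65 to 0.27). *CYP84A4* was lower by 0.50 (adjusted p = 0.0377), a direction that turned with spike-in scaling and a call lost without meristem replicate 2 (adjusted p = 0.0959), leaf replicate 1 (0.202) or leaf replicate 2 (0.130). *CYP98A8* and *CYP98A9*, which act in pollen, were not measured in both replicates of any tissue, although leaf replicate 2 read 4.25 for *CYP98A9* against 0.95 in leaf replicate 1, and the gene passed without the latter (-3.48). Among 9 other enzymes of the pathway 3 were higher (*PAL1*, *4CL2* and *CAD5*) and 1 lower (*4CL1*).

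Of the 19 genes of cutin, suberin, wax and pollen wall monomers, 4 were lower in the meristem samples (21.1%, background 21.6%) and 4 higher (21.1%, background 27.1%). With spike-in scaling 2 were lower and 8 higher. The genes gained as higher (*CYP703A2*, *CYP86C1*, *CYP86C3* and *CYP86C4*) were not well above background on any array. *CYP86A2*, a fatty acid omega-hydroxylase of cutin (AT4G00360), had 9.47 and 9.66 in the meristem against 12.84 and 12.92 in the leaf, 9.96-fold lower in the meristem (adjusted p = 0.000552). *CYP77A6*, which hydroxylates cutin monomers in mid-chain, was lower by 2.34 ± 0.30 (adjusted p = 0.00517). *CYP77A4* was lower by 0.96 (adjusted p = 0.0207), a call that was lost without leaf replicate 2 (difference -0.82). It was also lost with normexp correction, no scaling and spike-in scaling, with differences of -0.71, -0.55 and -0.19 (adjusted p = 0.356, 0.223 and 0.470). *CYP86A8* (*LACERATA*) was lower by 0.71 (adjusted p = 0.0199), which turned with spike-in scaling (0.06) and was lost without meristem replicate 1, meristem replicate 2 or leaf replicate 2 (adjusted p = 0.0531, 0.0501 and 0.110). On the other side stood the suberin hydroxylases. *CYP86A1* (*HORST*, AT5G58860) reached 8.04 and 7.42 in the meristem and was not well above background in the leaf, at least 25.2-fold higher (adjusted p = 0.00163). *CYP86B1* (*RALPH*), which acts on very long chains, reached 5.51 and 5.06 in the meristem, at least 4.63-fold higher (adjusted p = 0.00363). Without leaf replicate 1 or 2 the fitted difference of *CYP86A1* was 5.42 or 6.64. With normexp correction the calls of *CYP86A1* and *CYP86B1* were lost, with differences of 1.46 and 0.22 (adjusted p = 0.303 and 0.958). AT5G08250, the remaining gene of this set, was higher in fitted value but not well above background in either tissue. Of 7 cutin and suberin genes outside this family, 2 were higher in the meristem samples, 2 lower and 3 did not pass. The acyltransferase *GPAT5* of suberin synthesis was at least 4.64-fold higher and *DCR* was higher by 1.95. The lower genes were *GPAT4* and *GPAT8*, with differences of -1.23 and -1.49. *CYP77B1*, a relative of the cutin enzymes, had 11.37 and 10.79 in the meristem against 8.05 and 8.33 in the leaf, 7.43-fold higher (adjusted p = 0.00188).

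The spread between the meristem replicates was wide for several of these cuticle genes. *CYP86A7* read 6.65 in meristem replicate 1 and 4.39 in replicate 2 against 7.62 and 7.60 in the leaf, and *CYP86A4*, an omega-hydroxylase of flower cutin, read 7.97 and 6.51 against 8.57 and 8.45. *CYP96A15* (*MAH1*), a wax enzyme of the stem, read 5.61 and 3.59 against 3.39 and 3.49, with 1 of the leaf values well above background. None of the 3 passed the test (adjusted p = 0.0917, 0.110 and 0.242), and in each the value of meristem replicate 1 was the higher. Each passed when 1 meristem replicate was left out: *CYP86A7* with -3.22 without replicate 1 and -0.96 without replicate 2, *CYP86A4* with -1.998 without replicate 1, and *CYP96A15* with 2.17 without replicate 2. *CYP86C2* differed by -0.82 (adjusted p = 0.0519) and passed without meristem replicate 2 (-1.14). The epidermal markers *PDF1* (13.28 and 12.70), *ATML1* (12.09 and 11.88) and *PDF2* (11.39 and 11.27) also read higher in replicate 1. So did *GL1* (9.42 and 8.23), *GL2* (9.30 and 8.84) and *FAMA* (8.08 and 7.82) of the guard cell and trichome markers. *MYB60*, of the same list, was not well above background in the meristem (2.93 and 3.07). Between the tissues *GL1* was higher in the meristem by 2.61, and *GL2* did not pass. *FAMA* was lower (-2.64), as was *MYB60* by at least 132-fold. The log2 summed signal of the 3 epidermis markers was 14.05 and 13.65 in the meristem against 13.05 and 13.48 in the leaf. Of these *PDF1* alone differed, higher in the meristem by 1.70 (adjusted p = 0.00611). *ATML1* and *PDF2* did not pass, with differences of -0.16 and -0.10 (adjusted p = 0.592 and 0.775). The part of such cells in the differences of the cuticle genes was not tested. The pollen wall genes *CYP703A2* and *CYP704B1*, the fatty acid hydroxylases *CYP86C1*, *CYP86C3* and *CYP86C4*, as well as *CYP77A7* and *CYP77A9*, stayed near background on all 4 arrays.

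Indole and nitrile defence genes were higher in the meristem in 7 of 12 members tested (58.3%, background 27.1%) and lower in 1 (8.33%, background 21.6%). *CYP81F4* (AT4G37410), which modifies indole glucosinolates at the ring nitrogen, had 13.74 and 12.99 in the meristem against 7.94 and 7.67 in the leaf. The tissues were separated by 5.56 ± 0.30 (47.1-fold, adjusted p = 0.000786). *CYP81F2* (AT5G57220), which hydroxylates the same compounds at another ring position, went the opposite way, with 8.19 and 8.03 against 10.52 and 10.31 (4.93-fold lower, adjusted p = 0.00101). *CYP81F1*, close to *CYP81F4* on chromosome 4, was higher by 0.80 ± 0.14 (adjusted p = 0.0112), a call lost without leaf replicate 1 (adjusted p = 0.0692) or leaf replicate 2 (0.0586), and *CYP81F3*, of the same cluster, differed by 0.33 (interval -0.19 to 0.85). In the camalexin branch the neighbours *CYP71A12* and *CYP71A13*, which form indole acetonitrile, were higher by 1.71 ± 0.21 and 1.22 ± 0.25 (adjusted p = 0.00479 and 0.0202). *CYP71A13* lost its call without meristem replicate 2 (adjusted p = 0.0581) or leaf replicate 1 (0.0643). *CYP71B15* (*PAD3*), which closes the camalexin ring, had 11.27 and 11.37 against 10.44 and 10.42, 1.85-fold higher (adjusted p = 0.00609). The calls of *CYP71A12*, *CYP71A13* and *CYP71B15* were lost with normexp correction, with differences of 0.91, 0.26 and 0.86 (adjusted p = 0.183, 0.958 and 0.0798). That of *CYP81F1* was lost as well (difference 0.73, adjusted p = 0.121). *CYP82C2*, which hydroxylates an indole carbonyl nitrile, and its close relative *CYP82C3* were measured in the meristem alone, at least 3.46-fold and 2.30-fold higher (adjusted p = 0.0119 and 0.0152). Both calls were lost with normexp correction, with differences of 0.25 and 0.02 (adjusted p = 0.958 and 0.992), and with the methods' test. *CYP71B6*, which acts on indole acetonitrile, had overlapping values and an interval of -0.27 to 0.43, and *CYP79F2*, of methionine-derived glucosinolates, overlapped too. *CYP79A2*, *CYP79C1*, *CYP79C2* and *CYP82C4* stayed near background on all 4 arrays.

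Of the terpene P450 genes, *CYP76C1*, which oxidises linalool, was high in the leaf with 11.23 and 11.09 against 7.98 and 7.61 in the meristem (10.3-fold, adjusted p = 0.000763). Its other probe gave -3.50. *CYP706A3* (AT5G44620), which oxidises sesquiterpenes of the flower, was the reverse, with 11.28 and 11.19 in the meristem against 9.20 and 8.93 in the leaf (4.50-fold higher, adjusted p = 0.00121). Both tissues were separated for each gene. With *CYP706A3*, 3 of 4 flower markers were higher in the meristem samples (log2 summed signal of 9.73 and 10.13 against 6.61 and 6.45), and their part was not tested. *CYP76C2* differed by 0.90 ± 0.28 and *CYP82G1*, of homoterpene synthesis, by -0.60 ± 0.22, neither past the threshold (adjusted p = 0.0582 and 0.0822), but the first passed under several alternatives, among them without leaf replicate 2 (1.20) and the second without meristem replicate 1 (-0.87). *CYP76C3*, *CYP76C4*, *CYP76G1* and *CYP71B31* stayed near background on all 4 arrays. In the triterpene clusters, whose products are known from roots, only *CYP705A1* passed (adjusted p = 0.0294), and its meristem values of 5.30 and 3.09 differed widely, the first alone being well above background. Its call was lost without leaf replicate 1 or 2 (adjusted p = 0.0662 and 0.0779), and its difference was 2.11 without meristem replicate 1, 4.33 without replicate 2 and -0.05 with normexp correction. *CYP708A2*, the thalianol hydroxylase, read 4.81 in meristem replicate 1 and 1.45 in replicate 2, and did not pass (adjusted p = 0.182), though it passed without replicate 2 (3.92) and with no scaling (2.66). *CYP705A12* was measured in both tissues with overlapping values and an interval of -0.38 to 0.37. *CYP705A5* of thalianol, *CYP71A16* of marneral, and *CYP716A1* and *CYP716A2* of amyrin-type triterpenes stayed near background on all 4 arrays.

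**Figure D3:**
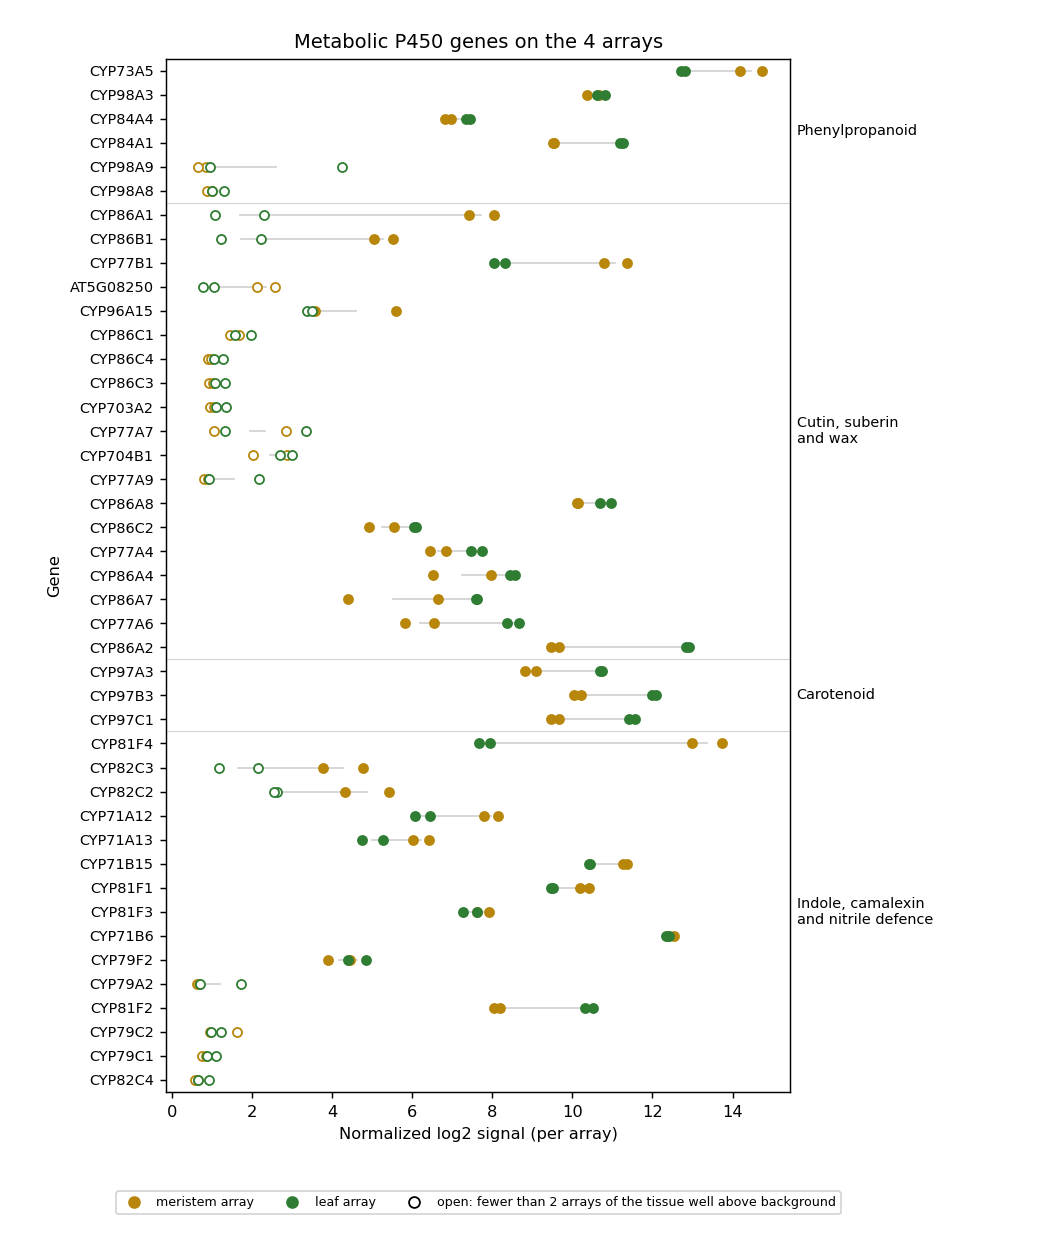
Normalized log2 signal (horizontal axis) of the phenylpropanoid, cutin, carotenoid and defence P450 genes, drawn as 1 row a gene with 1 point an array and a line between the tissue means; open points mark a tissue in which fewer than 2 arrays were well above background. Within its row *CYP86A1* is high in the meristem, *CYP86A2* in the leaf, and *CYP86A7* shows the spread of its meristem values.

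Beyond the listed roles, the CYP71B subfamily held 22 of the 66 members lower in the meristem samples. Of its 34 members 28 were tested, with 78.6% lower (background 21.6%) and 3 higher (10.7%, background 27.1%). The median difference was -1.62. The counts were 16 lower and 5 higher with spike-in scaling, 17 and 3 with no scaling, 22 and 3 with median scaling, and 6 and 0 with normexp correction. Substrates are known for few members of the subfamily. Many of its genes lie side by side and are similar in sequence, so that their probes may share signal, and 2 members of the whole set (*CYP705A19* and *CYP706A2*) have a probe that names more than 1 locus.

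Runs of neighbouring genes, counted as members of 1 subfamily with no more than 2 other genes between them, held 117 members in 36 groups. Of the 18 groups with at least 2 differing members, 6 differed upwards alone, 7 downwards alone and 5 in both directions. The longest run, 9 genes on chromosome 3 from *CYP71B16* to *CYP71B24*, was lower in all 9, from -0.69 for *CYP71B23* to -3.14 for *CYP71B20*, of which 6 passed with no scaling, 6 with spike-in scaling and 1 with normexp correction. The difference of *CYP71B23* turned with spike-in scaling (0.07). *CYP71B20* (AT3G26180) had 5.73 and 5.18 in the meristem against 8.54 and 8.65 in the leaf (8.80-fold, adjusted p = 0.00129). Its call was lost with normexp correction (difference -1.87, adjusted p = 0.126). A few genes further on lay a run of 7, in which 5 of 6 tested members were lower and the last was higher. *CYP71B4* (AT3G26280) had the largest fold of the leaf-high members measured in both tissues, with 5.96 and 5.02 in the meristem against 12.33 and 12.21 in the leaf. The values stood 110-fold apart (difference -6.78 ± 0.35, adjusted p = 0.000737), with leaf replicates nearly equal. *CYP71B35* and *CYP71B36*, also of that run, were lower by 3.15 and 3.88 (adjusted p = 0.000545 and 0.000541). With normexp correction these 2 calls were lost, with differences of -1.24 and -1.47 (adjusted p = 0.307 and 0.246). *CYP71B37* (AT3G26330), at its end, was the reverse of its neighbours, with 8.78 and 9.23 in the meristem against 4.23 and 4.15 in the leaf. It was 28.2-fold higher (difference 4.82 ± 0.19, adjusted p = 0.000546), although the call was lost with normexp correction (adjusted p = 0.106). Both directions also occurred side by side on chromosome 5, where *CYP71B11* and *CYP71B12* were lower by 1.64 and 0.83 and *CYP71B13* next to them was higher by 3.16 ± 0.47 (adjusted p = 0.00782). The calls of *CYP71B11*, *CYP71B12* and *CYP71B13* were lost with normexp correction (adjusted p = 0.0994, 0.958 and 0.195).

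**Figure D4:**
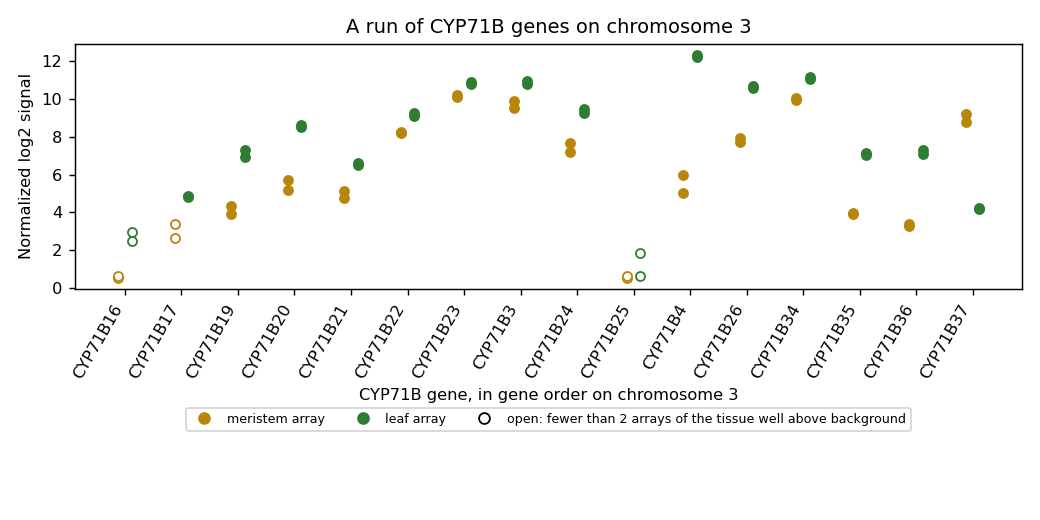
Normalized log2 signal (vertical axis) of the CYP71B genes of both runs on chromosome 3 (horizontal axis, in gene order, not to scale), with 1 point an array; open points mark a tissue in which fewer than 2 arrays were well above background. The leaf points lie above the meristem points from *CYP71B16* to *CYP71B36*, apart from the untested *CYP71B25*, and below them in *CYP71B37*.

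In the CYP71A cluster on chromosome 3, 4 of 5 tested members were lower in the meristem samples. *CYP71A22* (AT3G48310) had 6.67 and 7.06 in the leaf and was not well above background in the meristem, at least 15.6-fold lower (adjusted p = 0.000464). *CYP71A24* and *CYP71A21* were at least 11.1-fold and 4.10-fold lower, also with no meristem value well above background, and *CYP71A25* was lower by 0.87. Without meristem replicate 1 or 2 the fitted difference of *CYP71A21* was -2.59 or -3.88. With normexp correction the calls of *CYP71A22*, *CYP71A24* and *CYP71A21* were lost, with differences of -1.23, -1.13 and -0.52 (adjusted p = 0.420, 0.470 and 0.879). *CYP71A23* did not pass the test and *CYP71A26* was not tested.

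In all, 9 of 22 tested members of the CYP705A subfamily were higher in the meristem samples (40.9%, background 27.1%) and 1 lower (4.55%, background 21.6%). The median difference was 0.56, and the counts moved with the scaling. Apart from *CYP705A1* and *CYP705A13*, the higher members differed by 0.69 to 0.98. The number higher was 3 with median scaling, 12 with no scaling, 17 with spike-in scaling and 0 with normexp correction, and it fell to 2 and 3 without leaf replicate 1 and leaf replicate 2. *CYP705A13* (AT2G14100) had 5.88 and 5.99 in the meristem and was at least 7.26-fold higher (adjusted p = 0.000753), with leaf values not well above background. For *CYP705A15* a second probe of lower signal ran against the first, -0.87 against 0.75 (-0.058 for their mean), and the same held for *CYP81G1* (0.84 against -1.19).

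The 8 members of the CYP72A cluster on chromosome 3 all differed, 6 lower (75%, background 21.6%) and 2 higher (25%, background 27.1%). However, with no scaling or spike-in scaling none of the 8 was called lower. Their number lower was also 3 without meristem replicate 1 and 3 without leaf replicate 2. *CYP72A7* (AT3G14610) stood apart, with 7.83 and 8.53 in the meristem against 5.78 and 5.94 in the leaf (4.99-fold higher, adjusted p = 0.00404), while the lower members ranged from -1.22 to -0.68, the latter (*CYP72A8*) turning to 0.09 with spike-in scaling. *CYP72A14* was higher by 0.93. The calls of *CYP72A7* and *CYP72A14* were lost with normexp correction, with differences of 1.30 and 0.0066 (adjusted p = 0.155 and 0.998).

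Of the 7 CYP706A members 4 were lower and 1 higher. *CYP706A6* (AT4G12320) had 7.80 and 8.20 in the leaf and 0.99 and 1.15 in the meristem, where it was not well above background. This gave the largest bound of the leaf-high members, at least 34.3-fold (adjusted p = 0.000464), but with normexp correction the difference was -1.84 and the call was lost (0.204). The neighbours *CYP706A1* and *CYP706A2* were lower by 2.60 and 2.13 (adjusted p = 0.000599 and 0.00360). The call of *CYP706A2* was lost with normexp correction (difference -1.90, adjusted p = 0.0545). All 3 tested members of the CYP89A subfamily were lower, led by *CYP89A2* (AT1G64900) with 8.14 and 8.11 in the meristem against 11.73 and 11.88 in the leaf (12.8-fold, adjusted p = 0.000489). AT2G12190, a member with no family name in the files, had 6.75 and 6.80 in the leaf and no meristem value well above background, at least 14.7-fold lower (adjusted p = 0.000529), a call lost with normexp correction (difference -1.29, adjusted p = 0.396).

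Among the meristem-high members of no listed role, *CYP722A1* (AT1G19630) had 8.71 and 9.09 in the meristem against 5.71 and 5.64 in the leaf (9.36-fold, adjusted p = 0.000803). *CYP708A3* (AT1G78490) was bright in both tissues, with 12.88 and 13.30 against 10.93 and 11.28 (3.96-fold higher, adjusted p = 0.00349). In neither gene did the tissues overlap, which the rule for naming them required. *CYP709B2*, *CYP76C5*, *CYP715A1* and *CYP87A2* were well above background in the meristem alone and at least 4.34-fold, 3.03-fold, 2.52-fold and 2.38-fold higher (adjusted p = 0.00733, 0.0111, 0.00163 and 0.0160). Without leaf replicate 1 or 2 the fitted difference was 3.94 or 2.55 for *CYP76C5* and 3.65 or 2.08 for *CYP87A2*, whose adjusted p was 0.0502 without meristem replicate 2. Each of these calls was lost with normexp correction (adjusted p = 0.0991 for *CYP722A1* and 0.0645 for *CYP708A3*).

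Of the 16 tested CYP81 members 2 were higher (*CYP81F4* and *CYP81F1*) and 3 lower. Among the latter, *CYP81D11* was picked after its values were seen and was lower by 2.71 ± 0.19 (adjusted p = 0.00120). Its call was lost with normexp correction (difference -1.77, adjusted p = 0.0587). Of the 10 tested CYP96 members, relatives of the wax enzyme *CYP96A15*, 2 were higher and 3 lower, and 5 of the 12 in the family stayed near background on all 4 arrays. Fitted differences ran from -2.08 for *CYP96A5*, well above background on only 1 meristem array, to 3.02 for *CYP96A11*. Both calls were lost with normexp correction, with differences of -0.47 and 0.04 (adjusted p = 0.910 and 0.987). Of the 6 CYP79 members, whose enzymes turn amino acids into oximes, 3 were tested and none passed, and 5 stayed near background on all 4 arrays. In the CYP702 family 5 of 6 members gave no signal well above background, and 1 of 3 tested was lower.

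Of 9 genes for P450 reductases, cytochrome b5 proteins and cytochrome b5 reductase, all well above background on all 4 arrays, 2 were higher in the meristem samples (*CB5-B* by 0.78 ± 0.15 and *CB5-C* by 0.54 ± 0.13) and none lower (22.2% differed, against 48.6% of all loci). The reductases *ATR1* and *ATR2*, which serve most of the family, had overlapping values with intervals of -0.22 to 0.67 and -0.46 to 0.37.

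The calls that depended least on the processing were few. Of the 118 differing members, 21 passed in all 15 alternatives. On the meristem side these were *CYP78A5*, *CYP81F4*, *CYP94C1*, *CYP706A3* and *CYP707A3*. On the leaf side they included *CYP71B4*, *CYP89A2*, *CYP86A2*, *CYP76C1*, *CYP81F2*, *CYP84A1* and the 3 carotenoid hydroxylases.

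**Figure D5:**
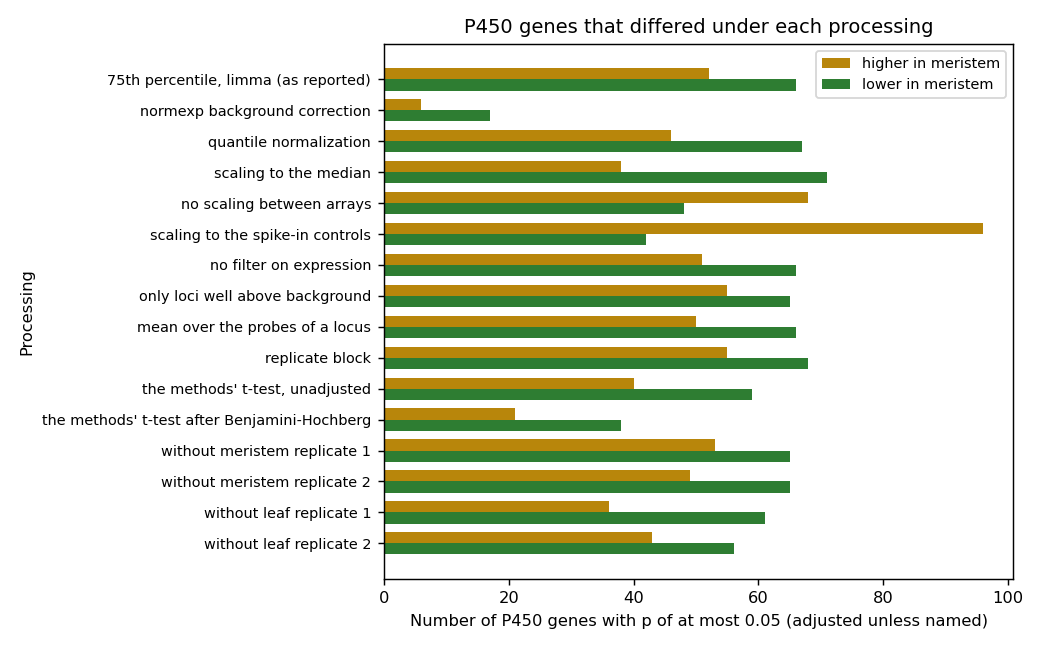
Number of P450 genes (horizontal axis) with an adjusted p of at most 0.05 (unadjusted in the bar so named), higher or lower in the meristem samples, under each way of processing the arrays (vertical axis). The bars are shortest with normexp correction (6 and 17), and those for higher members are longest with spike-in scaling (96).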

How the data were processed

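RNA of meristem-enriched tissue and of young leaves of *clv3-9* plants was hybridised to 4 one-colour Agilent arrays, 2 biological replicates a tissue, on 1 slide read in 1 scan. The deposited intensity values are spot signals made by the authors with Agilent Feature Extraction 9.5.3.1, which subtracts the background, and no genome build is given in the sources used here. The cytochrome P450 members and the gene lists were chosen with earlier results of these data known. Control spots were left out, which left 37478 probes. The main value was log2 of the processed signal minus the 75th percentile of its array (606 to 978), and each locus was represented by its probe of highest mean signal. A locus entered the test if, after background subtraction, both replicates of at least 1 tissue had a signal over 0. The test was that of limma 3.58.1 (R 4.3.3), with Benjamini-Hochberg adjustment over 23255 loci and a threshold of 0.05. Intervals are 95% and not adjusted for multiple testing. The script was tested on simulated data.

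Between 60.1% and 63.3% of probes were well above background on an array, and the pooled replicate SD was 0.31. With 2 arrays a tissue the p-values measure only the spread between these samples, and an exact permutation test of 1 gene cannot go below 0.333. Where neither replicate of a tissue rose well above background, the fold is a lower bound: the mean of the brighter tissue over all its replicates, against the mean of, per array, the higher of the dim probe's own signal and the lowest signal among probes well above background. No fold is given where that bound is under 1, where both tissues were dim or where only some arrays measured the gene. Genes were named where they stood on a role list, where they had the 5 largest differences or the 5 largest bounds in each direction, or where they neighbour such a gene; others were named after their values were seen, as family members or the ends of a range. Gene order came from RefSeq (TAIR10.1), in which all 233 members were found. Alternatives were other background correction, scaling, filters, probe choice, a replicate block, the methods' t-test and leaving out each array.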

Additional observations from a re-analysis of the deposited data

How the results depend on the processing

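The counts moved with the background correction, the scaling and the test. With normexp correction 6 P450 genes were higher and 17 lower (4 and 7 at 4-fold, 6 and 7 on the role lists), and the difference turned to -0.046 for *CYP705A1*, -0.20 for AT5G08250, -0.11 for *CYP735A1*, -0.052 for *CYP718* and -0.100 for AT3G44970. With spike-in scaling 96 were higher and 42 lower (38 and 14 at 4-fold), with 48 higher on the role lists, and the difference turned to 0.54 for *CYP703A2*, 0.54 for *CYP86C3*, 0.55 for *CYP86C4*, 0.55 for *CYP86C1*, 0.69 for *CYP707A2*, 0.58 for *CYP98A3*, 0.056 for *CYP86A8*, 0.27 for *CYP84A4*, 0.76 for *CYP705A12*, 0.18 for *CYP74A*, 0.086 for *CYP72A8* and 0.075 for *CYP71B23*. Spike-in scaling moved every difference up by the same 0.77, which turned these small negative differences. Why the scalings differ was not tested. The methods' t-test called 40 higher and 59 lower before adjustment and 21 and 38 after Benjamini-Hochberg adjustment, with 11 higher at 4-fold and 13 higher and 10 lower on the role lists. Without 1 array the counts were 36 to 53 higher and 56 to 65 lower, 24 to 27 and 23 to 26 at 4-fold, and 23 to 30 and 14 to 18 on the role lists. Of genes near background on all arrays, *CYP716A1* passed without meristem replicate 1, *CYP704B1* and *CYP705A5* without meristem replicate 2, and *CYP77A9* and *CYP79A2* without leaf replicate 2. Replicate numbers are shared between the tissues but mark no common origin in the labels, and the deviations of same-numbered samples correlated at 0.09 over only 2 pairs. With the replicate number as a block 55 were higher and 68 lower, and *CYP76C2* passed (adjusted p = 0.0167). Quantile normalization, no filter, a stricter filter and the mean over probes kept these counts within 1.5 times. The number of arrays limits the precision, and dim genes have only bounds.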
